A study of Mus musculus with 21 samples.

Results

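The genes described here are the replication-dependent histone genes of the mouse, taken as every gene whose symbol begins with H2ac, H2bc, H3c or H4c, together with H1f1 to H1f5. The rule found 54 genes of the 49652 that were counted. They are 5 genes for the linker histone H1, 14 for H2A, 13 for H2B, 12 for H3 and 10 for H4. The members were chosen by name, and the group was selected on measured values, namely its levels in these 21 tumors and above all in tumor N-4. The levels in N-4 are therefore given as a description, and the relation to other genes is given with and without N-4.

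RNA was sequenced from 21 mammary tumors of mice that carry FloxNeoNeuNT, an activated Neu cDNA at the Erbb2 locus that is silent until Cre removes a stop cassette, and MMTV-CreNLST, which expresses Cre from a mammary promoter. The control cohort holds 9 tumors from 9 mice, of which 7 also carry Gata4(loxP/+) and 2 (N-15 and N-17) do not. The RhoC cohort holds 12 tumors from 8 mice, none of them labelled Gata4(loxP/+). These mice carry R26(RhoC/+) in addition, a mouse RhoC cDNA at Rosa26 that Cre switches on. Of the 12 tumors, 2 (R-6 and R-7) came from mouse N9255 and 4 (R-13 to R-16) from mouse P497. R-18 was counted as a mouse of its own because its label names none. Ages of the animals are not given in the labels.

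Libraries held 47309780 to 100741339 counted reads. All 210 pairs of libraries differed far beyond counting noise, the closest pair having a chi-square of 305 per gene. The level of Rhoc did not separate the cohorts, at 4.70 to 7.43 (log2 CPM, counts scaled to library size) in tumors labelled control and 4.51 to 7.21 in tumors labelled RhoC, so cohort names here follow the labels. The 9 lists of marker genes for epithelium, fibroblasts, endothelium, macrophages, T cells, B cells, red cells, fat and muscle had 63 of 79 genes above the filter. Whole tumors were sequenced, so fewer cells of one type and less RNA per cell cannot be told apart in any level below.

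Replication-dependent histone genes supply the proteins that package newly made DNA. They have no introns in their basic form, lie in dense clusters and are transcribed mainly in S phase under NPAT, a coactivator that is itself switched on at the start of S phase. Their messages end not in a poly(A) tail but in a short stem-loop that is bound by SLBP, and they are degraded quickly when DNA synthesis stops. Some of these genes can also give polyadenylated messages, mainly in cells that have left the cycle. The libraries were made from total RNA after removal of ribosomal RNA, a method that does not require a poly(A) tail.

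The stem-loop is the feature that sets these messages apart, so its forms are shown first. It was searched for in the longest transcript of each gene in GENCODE M21 (build GRCm38), which holds a transcript for all 54 members, and was found in 33. The match is 16 bases long. The 2 arms of the stem are in capitals and the loop is in lower case.

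H2bc8: GGCUCUuuucAGAGCC
H2bc12: GGCUCUuuuaAGAGCC
H2ac20: GGCUCUuuuuAGAGCC
H4c8: GGCCCUuuucAGGGCC
H4c9: GGCCCUuuuuAGGGCC

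The first form was shared by 21 members of the H1, H2A, H2B and H3 classes. The form with an a at the end of the loop was shared by 5 members (H2bc12, H3c7, H3c6, H3c3 and H2bc3), and the form printed for H2ac20 was seen in that gene alone. The H4 genes had their own stem, which was found in H4c8, H4c6, H4c4 and H4c3 with one loop and in H4c9 and H4c14 with the other. In 16 of the 33 genes the transcript ended within 100 bases of the stem-loop, and in 17 it ran on further, by 4884 bases in H1f3. No match says only that these letters are not in the annotated transcript. Among the 21 members without one are short models such as H3c10, with 411 bases, and H2bc18, with 381 bases, and also H2bc21, whose transcript is 2620 bases long.

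Promoters were taken from RefSeq (GRCm38.p6), which listed 48 of the 54 members. Within 250 bases upstream of the start, CCAAT was present on either strand in 40 of the 48 (83.3%) and in 33.9% of all 32851 promoters listed. It occurred in all 13 H2A, all 11 H2B and all 5 H1 promoters, in 8 of 10 H3 promoters and in 3 of 9 H4 promoters. The octamer ATTTGCAT, on either strand, was in 10 members, 5 of H2A and 5 of H2B, against 1.6% of all promoters. TATAAA, on either strand, was in 22 members (45.8%) against 12.4% of all promoters. None of these motifs contains another. A pair of H2B promoters is shown because the genes behave differently below, H2bc8 following the other members and H2bc18 not. Both genes lie on the plus strand, with CCAAT, its complement, TATAAA and the octamer in capitals.

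H2bc8, chr13:23571150-23571399: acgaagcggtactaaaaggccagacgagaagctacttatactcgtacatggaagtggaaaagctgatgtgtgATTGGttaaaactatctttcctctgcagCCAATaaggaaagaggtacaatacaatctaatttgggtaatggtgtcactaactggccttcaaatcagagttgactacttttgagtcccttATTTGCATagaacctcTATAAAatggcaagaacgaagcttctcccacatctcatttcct
H2bc18, chr3:96269450-96269699: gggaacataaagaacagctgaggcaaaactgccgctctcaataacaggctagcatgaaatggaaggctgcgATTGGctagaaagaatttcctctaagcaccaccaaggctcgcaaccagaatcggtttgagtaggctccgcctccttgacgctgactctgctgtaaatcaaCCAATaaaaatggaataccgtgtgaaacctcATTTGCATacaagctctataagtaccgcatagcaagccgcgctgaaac

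Both promoters hold 2 CCAAT matches and the octamer, and they differ in these letters only by TATAAA, which H2bc8 has and H2bc18 lacks. H2bc14 is the other H2B gene whose promoter has CCAAT and the octamer but no TATAAA. Its level in N-4 differed by -3.40 log2 units from the median of the other tumors, where that of H2bc18 differed by 0.01. The part of TATAAA was not tested.

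The members form 4 blocks in the genome (GRCm38). On chromosome 13 there are 44 members, 10 between H2bc13 and H3c11 (chr13:21715763-21783370), 5 between H2ac12 and H2bc11 (chr13:22035164-22043676) and 29 between H4c8 and H1f1 (chr13:23531050-23764406). The other 10 lie on chromosome 3, from H2ac21 to H2bc18 (chr3:96219865-96270132). No member lay on chromosome 11. A total of 53 members passed the filter on low counts, and H2ac5-ps, annotated as a pseudogene, did not.

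Reads that map to more than 1 place were discarded by the authors, and the coding sequences of these genes are nearly identical, so counts for close copies are uncertain. This applies to H2ac18 and H2ac19 and to H3c14 and H3c15 on chromosome 3, and to H2bc6, whose annotated span (chr13:23583670-23621124) overlaps H1f4.

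Levels between genes were compared as the authors' FPKM, fragment counts divided by library size and by gene length. The median FPKM over 21 tumors ranged from 0.612 for H2bc21 to 110 for H4c8, and the median over the 53 members was 21.3. By class, the median was highest for H4 (48.7) and lowest for H2A (2.77), with 35.7 for H1, 35.9 for H3 and 17.3 for H2B. The 2 highest members of each class were H4c8 and H4c2 (74.4), H3c6 (72.0) and H3c3 (66.5), H2bc18 (79.9) and H2bc8 (47.0), H2ac15 (50.6) and H2ac10 (19.1), and H1f2 (49.7) and H1f5 (48.1). The ranges of H4c8 (15.4 to 251) and H4c2 (6.13 to 223) over tumors overlap, as do those of the next genes, so their order is not fixed by these tumors. The chromosome 13 members had a median FPKM of 23.8 and those of chromosome 3 one of 3.89, where H2bc18 and H3c13 (55.1) stood above the rest.

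Histone messages made up 0.0756% to 0.314% of counted reads in 20 tumors and 0.0180% in control tumor N-4, whose 95% Wilson interval is 0.0176% to 0.0183% and covers counting error only. Tumor N-4 had the lowest level of all 21 tumors in 49 of the 53 members, against 14.1% of all 19315 genes tested, and the highest level in none. It lay at least 1 log2 unit below the median of the other 20 tumors in 49 members, against 18.9% of all genes tested, and at least 2 units below it in 43. The median over the members of N-4 minus the median of the other tumors was -3.0, 8.01-fold lower, and the same median over all genes tested was -0.01. Against the other 8 controls alone it was -2.64. These shares are a description, since N-4 was in view when the group was chosen.

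**Figure D1:**
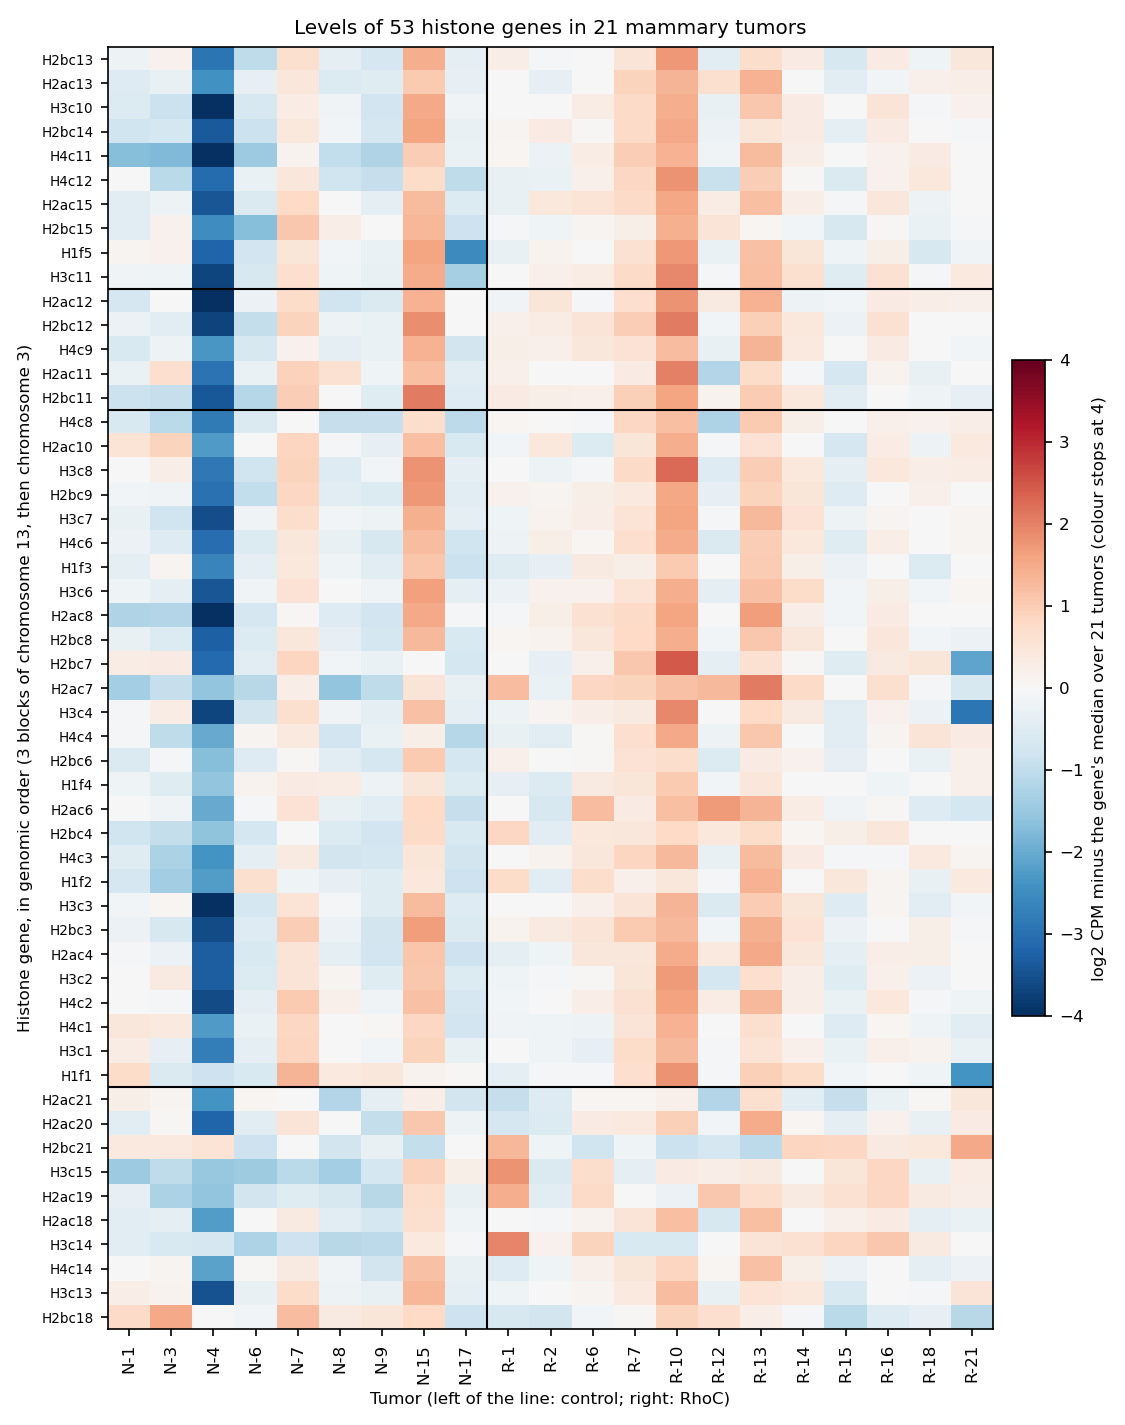
Rows are the 53 histone genes in genomic order, with lines between the 4 blocks, columns are the 21 tumors, and colour is log2 CPM minus the gene's median over tumors, with colours that stop at 4 units. Tumor N-4 is the darkest blue column, with H1f1, H3c14, H2bc18 and H2bc21 as pale cells in it, and N-15, R-10 and R-13 are red through most rows.

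Levels are given first for 3 of the members with the highest FPKM of their class. H4c8, the H4 gene with the highest level (chr13:23531050-23531519), was at 2.86 log2 CPM in N-4 and at 4.47 to 6.91 in the other 20 tumors, with a median of 5.71. H3c6, an H3 gene of the same block (chr13:23561534-23562369), was at 2.49 in N-4 and at 5.52 to 7.54 in the others. H2bc8, the H2B gene whose promoter is shown above, was at 1.64 in N-4 and at 4.18 to 6.33 in the others. In all 3 genes N-4 lay apart from every other tumor, by 1.61 log2 units or more.

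The largest differences were in H3c10, H2ac12 and H4c11. H3c10, an H3 gene of the first block, had 27 reads in N-4, a level of -0.74, and lay at 3.29 to 5.67 in the others, a difference of -4.91 from their median. H2ac12, an H2A gene of low level, had 0 reads in N-4 and 0.387 to 3.15 CPM in the others. Against the 3 reads that a count of 0 allows, it was at least 17-fold lower in N-4 than the median of the others. H4c11, an H4 gene of the first block, had 8 reads in N-4 and a difference of -4.78 from the median of the others. After the GC correction described below, the difference of H4c11 was -4.47, the largest of the members, and that of H3c10 was -3.09. On chromosome 3 the largest differences were -3.55 for H3c13 and -3.22 for H2ac20. H2ac18 had 3 reads in N-4 and is not given a bound.

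The 4 members that were not lowest in N-4 were H1f1, H3c14, H2bc18 and H2bc21. H2bc18 (chr3:96269752-96270132) was at 4.93 in N-4, at the median of the other tumors (4.92), which spanned 3.81 to 6.44. H2bc21, an H2B gene with the lowest FPKM of all members, was at 1.29 in N-4 and had a median of 0.66 in the others, a difference of 0.63. H1f1, a linker histone gene and the last of the chromosome 13 block, was at 3.39 in N-4 against 1.82 to 6.0. H3c14 was at 1.71 against 1.13 to 4.33. H2ac7, an H2A gene, is counted as lowest in N-4 but only by a margin under rounding, since N-4 and N-8 both read -1.93.

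The makeup of the histone reads differed as well, since H3 genes held 13.3% of them in N-4 and 23.9% to 33.3% in the other tumors, and H2B genes held 26.6% against 12.2% to 20.6%. Much of the H2B share came from H2bc18, which held 1451 of the 10234 histone reads in N-4. By class, the median difference of N-4 was -3.50 for H3, -3.03 for H2B, -2.64 for H4, -2.44 for H2A and -2.29 for H1. H1f2, the H1 gene with the highest level, was at 4.04 in N-4 against 4.88 to 7.69. H1f5 was at 1.93 against 2.6 to 6.87. By block, the medians were -3.33, -3.46 and -2.92 for the 3 blocks of chromosome 13 and -1.94 for chromosome 3. The 16 members whose transcript ends within 100 bases of the stem-loop had a median difference of -3.18, the 17 with a longer annotated transcript -2.42, and the 20 tested without a match -3.01. After the GC correction described below, the order of these 3 groups changed, with medians of -1.88, -2.30 and -1.61, and their median GC content was 60.2%, 49.6% and 62.2%. The corrected medians were -1.88, -2.16 and -2.04 for the blocks of chromosome 13 and -0.68 for chromosome 3. By class they were -2.11 for H3, -1.99 for H2B, -2.01 for H4, -1.38 for H2A and -1.61 for H1.

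Library N-4 also stood apart in a property of all genes, which bears on these GC-rich messages. Among 14450 genes that are no members, with a mean log2 CPM over 0, the median of N-4 minus the other tumors was 1.15 for transcripts under 35% GC and fell along each GC class to -1.96 at 65% and over. The share of those genes lowest in N-4 was 5.99% at 45 to 50% GC, 39.6% at 55 to 60% and 55.8% at 65% and over. The slope of the deviation on GC was -0.95 log2 units per 10 points in N-4, and between -0.38 (N-3) and 0.27 in the other tumors. The members had 39.8% to 70.0% GC, with a median of 57.9%.

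**Figure D2:**
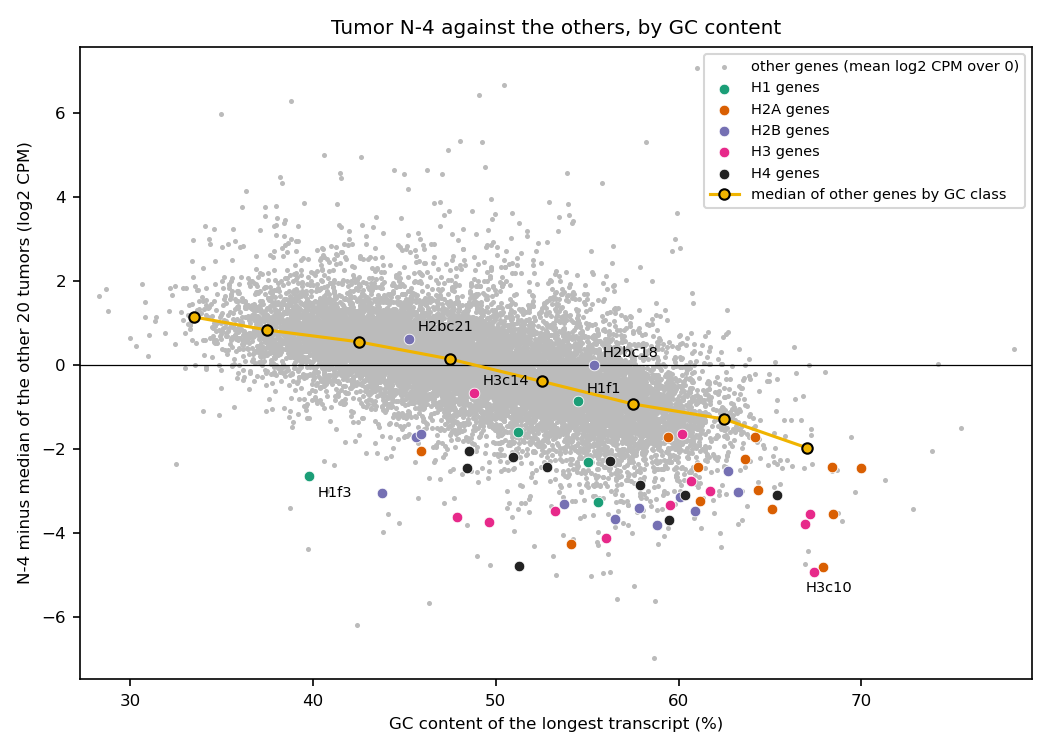
Each point is a gene, with the GC content of its longest transcript (%) on the x axis and N-4 minus the median of the other 20 tumors (log2 CPM) on the y axis. Grey points are genes that are no members, the yellow line joins their medians by GC class, and coloured points are histone genes by class. Most histone genes lie below the line, H1f3 and H3c10 far below it, while H2bc18 and H2bc21 lie on or above it.

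Within GC classes the histone genes were still low. Of the 53 members, 51 lay below the median of the other genes in their own class, and 33 lay below the lowest 5% of them. H1f3, a linker histone gene at 39.8% GC, was at -2.63 where the class median was 0.84. The 9 members at 45 to 50% GC had a median of -2.04 where the other genes had 0.15. At 65% GC and over, 9 members had a median of -3.55 and 43 other genes one of -1.96.

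When each tumor was corrected for its relation to GC, an alternative added after the data were seen, the median difference of N-4 over members became -1.94. N-4 was then lowest in 39 members, and in 8.22% of all genes. A correction for GC and transcript length together gave -2.05 and 42 members. H3c10 went from -4.91 to -3.09 under the GC correction, and H2ac19, at 64.2% GC, from -1.70 to 0.04. Few genes are as short and as GC-rich as some members, and the part of library quality in the result was not tested.

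Markers of other cell types also differed in N-4, though their summed levels lay within the range of the other tumors. Single markers did not all do so. In N-4, 3 fibroblast, 1 endothelial and 2 red cell markers were at their highest, and 1 red cell marker was at its lowest. The median difference of N-4 was 1.43 over 9 fibroblast markers, 2.98 over the 3 fat markers tested, 2.17 over the 5 red cell markers tested and -0.95 over 11 epithelial markers. After the GC correction these medians were 1.36, 2.82, 1.8 and -0.19. The summed level of epithelial markers was 2640 CPM in N-4 and 1420 to 18000 in the others, that of fibroblast markers 4940 against 301 to 11500, and that of fat markers 45.4 against 1.46 to 417. All 9 marker sums of N-4 lay inside the range of the other tumors, and no tested marker was at 0 reads in it. Their part in the level of histone messages was not tested.

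Genes of the S phase and of mitosis had smaller median differences in N-4 than the histone genes, before and after the GC correction. Over 45 S phase and DNA replication genes the median difference was -0.82, or -0.67 after the correction, and 11 of the 45 were lowest in N-4. Their largest difference was in Cdt1, which licenses replication origins, at 1.76 against 2.88 to 5.36, a difference of -2.52 that became -1.51. Over 30 mitosis genes the median was -0.61, or -0.93 after the correction, and 6 were lowest in N-4, with Aurkb, a mitotic kinase, at 2.10 against 2.82 to 5.03. Mki67, a marker of cycling cells, was at 7.48 in N-4, 0.13 below the median of the others, and Pcna, the sliding clamp of DNA polymerase, was at 7.06, above it by 0.53. After the correction these differences were -0.33 for Mki67 and 0.22 for Pcna.

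The factors that make and remove histone messages lay on both sides of the level of other tumors in N-4. Over 24 genes of histone transcription and 3′ processing the median difference was -0.01, or -0.33 after the GC correction. Slbp, which binds the stem-loop, was at 4.60 in N-4 and had a median of 4.63 in the others. Npat, at 7.09, was the highest of the 21 tumors, and Casp8ap2, which acts with it, was highest too at 6.03. Lsm11, a part of the U7 particle that cuts the message, was lowest at 1.96 against 2.75 to 4.01, and Sympk, a scaffold of the cleavage complex, was lowest at 5.15 against 5.90 to 7.24. After the GC correction the difference from the median of the others was 0.22 for Npat, 0.11 for Casp8ap2, -0.43 for Slbp, -1.26 for Lsm11 and -0.71 for Sympk. Over 17 genes of histone mRNA decay the median was 0.09, and 3 were lowest and 2 highest in N-4. Upf1, a helicase of that pathway, was lowest with a difference of -1.10, which was -0.07 after the GC correction. Tut4, a uridylating enzyme, was highest at 7.45 against 5.38 to 6.91, and Tut7 was highest at 7.30. Their differences of 1.17 and 0.44 became 0.54 and 0.14 after the correction.

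Other histone genes and other RNAs without a poly(A) tail differed among themselves. H2ax, an H2A variant whose message can end in either form, was at 1.08 in N-4 against 3.84 to 6.44. H2az1, a variant made throughout the cycle, was at 5.84 against 6.38 to 7.71, and H3f3b, the gene of the replacement histone H3.3, was at 9.57, higher than the median of the others by 0.61. Rpph1, the RNA of RNase P at 67.1% GC, was at 5.21 against 6.09 to 11.61, whereas Rn7sk, at 58.0% GC, was at 12.62 against 11.10 to 13.45. Over the 7 such RNAs tested the median was -1.14, or -0.42 after the GC correction, and 2 were lowest in N-4. After the GC correction the difference of H2ax went from -4.0 to -2.53, that of Rpph1 from -4.42 to -2.53, that of Rn7sk from 0.73 to 1.85 and that of H3f3b from 0.61 to 0.12, while H2az1 stayed near -1.1, at -1.14. Over 13 replication-independent variants the median was -0.98 with 7 lowest, and over 25 histone chaperones it was 0.07 with 8 lowest, the largest difference being in Hjurp at 3.73 against 4.26 to 6.89.

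Outside N-4 the histone genes varied together as well. The median over members of the level minus each gene's own median was 1.42 in R-10, 1.11 in N-15 and 1.0 in R-13, and it ran from -0.55 to 0.55 in the other 17 tumors besides N-4. R-10 was the highest tumor in 28 members, N-15 in 10 and R-13 in 8. Between pairs of members, the median Pearson r over 20 tumors without N-4 was 0.69, with 0.79 for 91 pairs within 10 kb, 0.68 for 336 pairs 10 to 200 kb apart, 0.77 for 521 pairs over 200 kb apart on chromosome 13 and 0.46 for 430 pairs on different chromosomes. The value did not fall steadily with distance along a chromosome. Pairs share libraries and base composition, so these are descriptions. After the GC correction the corresponding values were 0.77, 0.63, 0.73 and 0.39.

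H2bc21 ran against the rest. It was at -0.13, -0.23 and -0.31 in R-10, N-15 and R-13, the tumors where most members were highest, and at 2.25 and 2.05 in R-21 and R-1. Its level in R-13 was the lowest of all 21 tumors. The lowest r between any pair of members was -0.57 over the 20 tumors without N-4.

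Single genes departed from the others in certain tumors. In R-21, H3c4 was at 1.70 where every other tumor except N-4 was at 3.84 or higher, and H2bc7 was at 0.94 where they were at 2.36 or higher. These genes lie at chr13:23575763-23577011 and chr13:23573736-23574196, and H2ac7 lies between them at chr13:23574381-23574952 and was at -0.99, the lowest RhoC tumor for that gene. Of the genes to either side, H2bc8 was at 4.67, also the lowest RhoC tumor but inside the range of the controls, and H4c4 was at 6.32. H1f1 was at 1.82 in the same tumor, where the other 20 were at 3.39 to 6.0. In N-17, H1f5 was at 2.6 where the others except N-4 were at 4.37 or higher, and its neighbour H3c11 was at 3.24 where they were at 3.93 or higher. In R-1, H3c14 (4.33), H3c15 (1.70) and H2ac19 (2.90), which lie together on chromosome 3, were each at their highest. Their copies are hard to tell apart by short reads.

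Tumors of the same mouse were not always close. The standard deviation over members between the means of the 8 RhoC mice had a median of 0.57 log2 units. Within mouse N9255 it was 0.34 over 2 tumors, below the spread between mice in 48 of 53 members. Within mouse P497 it was 0.57 over 4 tumors, below it in 28, and R-13 stood above R-15 in that mouse, at 1.0 and -0.24 for the median of the members.

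Whether histone levels follow the cell cycle was examined over the 17 mice, with the mean of the 45 S phase genes as the measure. For each of the 53 members Pearson's r was computed with a two-sided permutation test of 100000 resamples, adjusted by Benjamini-Hochberg over the 53. The r was positive in 52 members with a median of 0.61, and 38 members passed an adjusted p of 0.05. By Spearman's rho the median was 0.49 and 23 passed. The test was run on the members alone, so no share over all genes stands beside these counts. The members move together, so those that passed are not separate observations. Without the 2 mice farthest from the median of the S phase measure, N9931 (R-10) and N7347 (N-6), the median r was 0.59 and 52 were positive. Within cohorts the median r was 0.66 over the 9 control mice and 0.74 over the 8 RhoC mice. Over the 8 control mice other than that of N-4 it was 0.57. Without N-4 the median r was 0.56 and 29 members passed, and by Spearman's rho the median was 0.40 and 9 passed. Without N-4 and the same 2 mice, the median Pearson r was 0.38 and 44 were positive.

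The members of the highest r included H2bc15, at 0.83 (permutation p = 6e-05, adjusted p = 0.0017, rho 0.73, permutation p = 0.00109) and H2ac11, at 0.80 (permutation p = 0.00012, adjusted p = 0.0017, rho 0.88, permutation p = 4e-05). For H3c3 r was 0.71 (permutation p = 0.00039, adjusted p = 0.0023, rho 0.80, permutation p = 0.00022), and for H4c8 it was 0.54 (permutation p = 0.024, adjusted p = 0.0342), with a rho of 0.40 (permutation p = 0.107, adjusted p = 0.154). H2bc18 had an r of 0.55 (permutation p = 0.0237, adjusted p = 0.0342, rho 0.54, permutation p = 0.0275, adjusted p = 0.0608), so that it did not pass by rho. Its r was 0.80 within the control mice and 0.35 within the RhoC mice. H2bc21 was the one member with a negative r, at -0.09 (permutation p = 0.724, rho -0.16, permutation p = 0.541), and H3c14, H2ac19 and H1f2 had values of 0.12, 0.13 and 0.17, none of which passed.

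These values include N-4, which was in view when the genes were chosen. Over the 16 mice without it, r was 0.82 for H2bc15 (permutation p = 0.00025, adjusted p = 0.00197), 0.81 for H2ac11 (permutation p = 0.00018, adjusted p = 0.00197) and 0.81 for H3c3 (permutation p = 0.00014, adjusted p = 0.00197), and these 3 members passed by rho as well. H2bc18 was at 0.57 (permutation p = 0.0205, adjusted p = 0.0435) and did not pass by rho (adjusted permutation p = 0.0905). H4c8 no longer passed, at 0.42 (permutation p = 0.109, adjusted p = 0.156). H2bc21, H3c14, H2ac19 and H1f2 lay at -0.02, 0.07, -0.05 and -0.13.

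**Figure D3:**
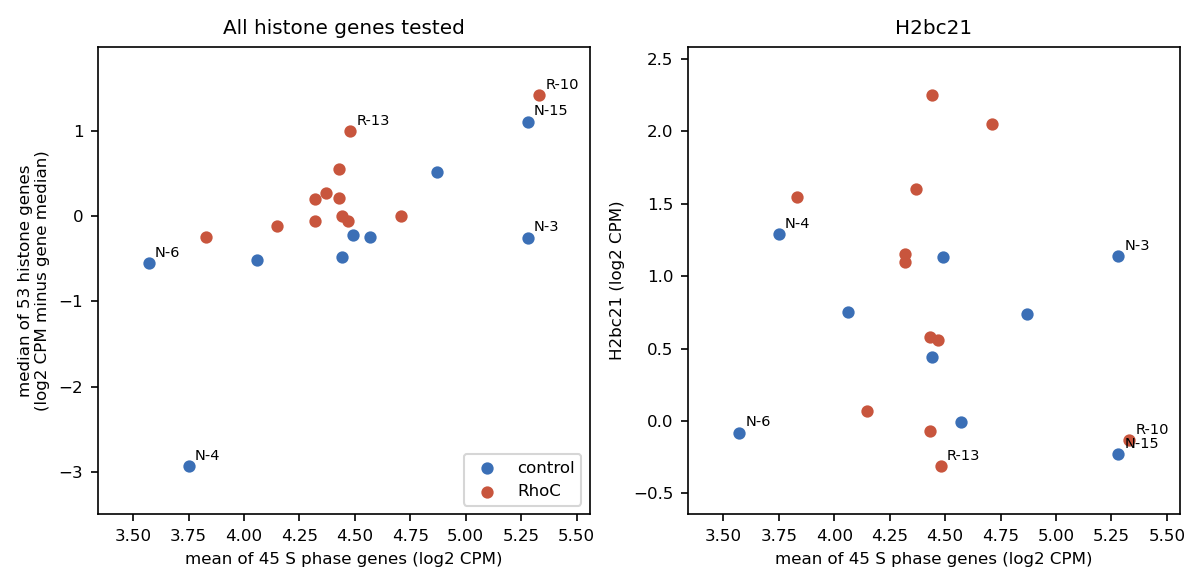
Points are the 21 tumors, blue for control and red for RhoC, with the mean of 45 S phase genes (log2 CPM) on both x axes. On the left the y axis is the median of the 53 histone genes after subtracting each gene's median, where N-4 lies at -2.93 below all others and R-10 and N-15 lie at the top right. On the right it is H2bc21 (log2 CPM), where the same 2 tumors lie near the bottom.

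The cohort comparison asks whether the RhoC allele goes with a change in histone messages. By edgeR's quasi-likelihood test over all genes with Benjamini-Hochberg adjustment, none of the 53 members passed an adjusted p of 0.05, where 43 genes (0.223% of 19315) did. An unadjusted p under 0.05 was seen in 11 members (20.5% of all genes). The log2 fold change, RhoC minus control, was positive in 51 members, where 49.6% of all genes were positive, and its median was 0.43 over the members and -0.005 over all genes. N-4, on which the group was chosen, is a control, and without it 45 members were positive with a median of 0.272. The members move together, so their signs are not separate observations.

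The smallest p-values were those of H2ac7, H3c14 and H2ac19. H2ac7 lay at -1.93 to 0.15 in the controls and at -0.99 to 1.72 in the RhoC tumors, with medians of -1.38 and 0.44. Its log2 fold change was 1.5 ± 0.38 (SE, n = 9 and 12 tumors; edgeR adjusted p = 0.0688). H3c14 lay at 1.13 to 2.75 and 1.75 to 4.33, with a log2 fold change of 1.15 ± 0.31 (edgeR adjusted p = 0.0773). H2ac19 lay at -0.13 to 2.13 and 1.01 to 2.90, with 1.08 ± 0.29 (edgeR adjusted p = 0.0798). The cohorts overlap in all 3 genes, and N-15 was the highest control in each.

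H2bc18 and H2ac10 were the only members with a negative value. H2bc18 had medians of 5.42 in the controls and 4.70 in the RhoC tumors and a log2 fold change of -0.72 ± 0.28 (edgeR adjusted p = 0.171). H2ac10 was at -0.01 ± 0.33, and its sign depended on the tumors and tool used. Of the members with high levels, H4c8 had 0.90 ± 0.32 (edgeR adjusted p = 0.14), H1f2 0.74 ± 0.29 (edgeR adjusted p = 0.171), H2bc8 0.59 ± 0.35, H2ac15 0.52 ± 0.36, H3c6 0.28 ± 0.37 and H4c2 0.34 ± 0.37. By class the median was 0.64 for H4, 0.56 for H2A, 0.43 for H2B, 0.32 for H3 and 0.29 for H1.

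**Figure D4:**
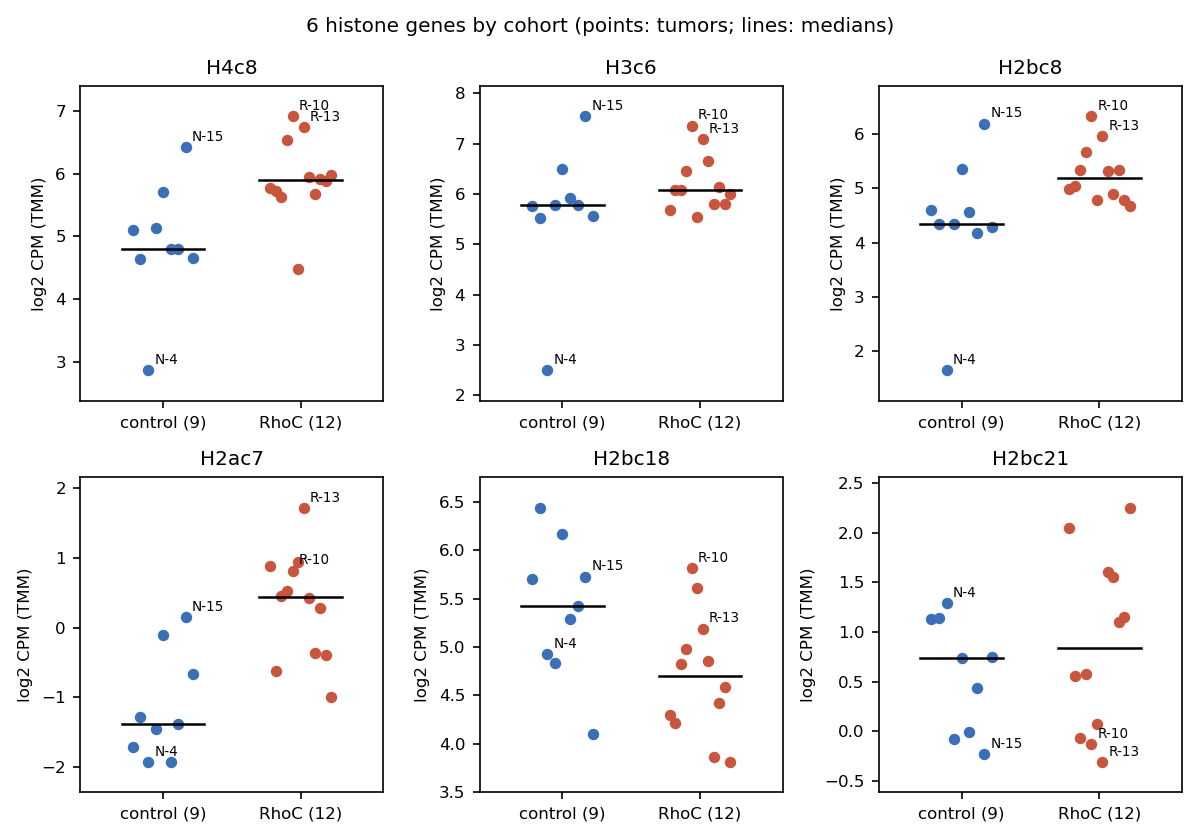
Each panel shows 1 gene, with the 9 control and 12 RhoC tumors as points, medians as lines and TMM log2 CPM on the y axis. N-4 lies lowest in H4c8, H3c6 and H2bc8 and within the controls in H2bc18, while the cohorts overlap in H2ac7, at -1.93 to 0.15 and -0.99 to 1.72.

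The size of the difference rested on a few tumors. Without N-4 the median log2 fold change over members was 0.272, with 45 positive, without R-10 it was 0.275, with 46 positive, and without N-15 it was 0.769. Leaving out N-15 also raised the calls to 6 members, where 1.77% of all genes were called. Against the 7 Gata4(loxP/+) controls alone, which leaves out N-15 and N-17, 6 members were called (2.22% of all genes) and the median was 0.740. No RhoC tumor is labelled Gata4(loxP/+), so there the RhoC allele and the Gata4 genotype cannot be told apart. With 7 such tumors among the 9 controls, this holds in part for the comparison of all tumors too. By DESeq2 6 members were called (6.24% of all genes). H2ac7, H3c14, H3c15, H2ac19 and H2bc4 were called in each of these 3 settings, all higher in RhoC tumors. N-15 differs from most controls in genotype and is 1 of the 3 tumors with the highest histone levels, and these cannot be told apart in that tumor. N-17, of the same genotype, had a member median of -0.51, and without it 0 members were called, with 10 at an unadjusted p under 0.05, and the median log2 fold change was 0.402. With counts summed per mouse, without the 4 tumors of P497 and by limma with mouse as a block, no member was called.

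The slope of level on GC was positive in 9 of 12 RhoC libraries and in 3 of 9 control libraries. After the GC correction the median log2 fold change was 0.308, 44 members were positive and none passed an adjusted p of 0.05 by edgeR, with 11 at an unadjusted p under 0.05. The part of GC in the remaining difference was not tested.

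**Figure D5:**
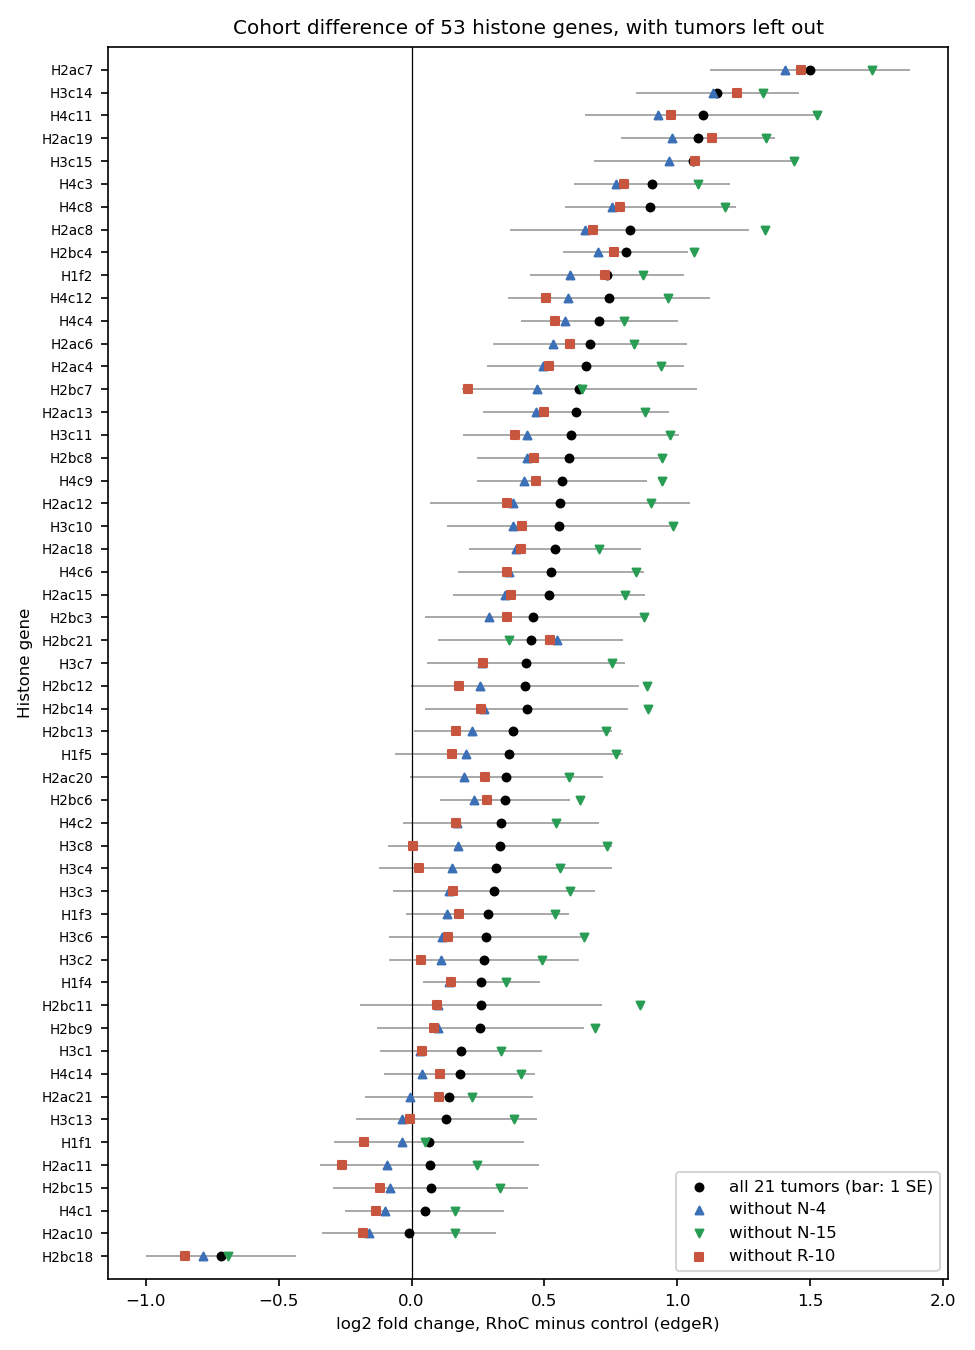
For each of the 53 genes the x axis gives the log2 fold change, RhoC minus control, with a bar of 1 SE for all 21 tumors, and the same without N-4, without N-15 and without R-10. Most points lie to the right of 0, those without N-15 furthest, and H2bc18 lies at -0.72.

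By edgeR no gene of the other 7 lists was called between the cohorts, with 2 or 3 genes of each list at an unadjusted p under 0.05, and by DESeq2 Tipin alone was called, lower in RhoC tumors. The median log2 fold change was -0.14 over the 45 S phase genes, of which 13 were positive, and -0.12 over the 30 mitosis genes, of which 8 were positive. Tipin, a replication fork protector, had the smallest p of the first list, at -0.75 ± 0.20 (edgeR adjusted p = 0.0764), and Top2a, which untangles DNA, of the second, at 0.80 ± 0.33 (edgeR adjusted p = 0.187). The list of histone processing had a median of -0.02, with Ncbp2, a cap-binding protein, at 0.46 ± 0.17 (edgeR adjusted p = 0.143). The decay list had -0.15, with Tut4, a uridylating enzyme, at -0.48 ± 0.20 (edgeR adjusted p = 0.189). The variants had 0.12, with H1f0, the linker histone of resting cells, at -0.50 ± 0.16 (edgeR adjusted p = 0.114). The chaperones had -0.15, with Ubn1 of the H3.3 loading complex at -0.34 ± 0.12 (edgeR adjusted p = 0.134). The RNAs without a poly(A) tail had 0.66, with Rpph1 at 1.10 ± 0.48 (edgeR adjusted p = 0.205). Slbp was at -0.05 ± 0.17, Mki67 at -0.37 ± 0.26 and Pcna at -0.38 ± 0.22.

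The cohort values of other cell types' markers stand beside those of the histone genes. By edgeR no gene of the 9 marker lists was called, with 0 to 2 genes of each list at an unadjusted p under 0.05, and by DESeq2 4 of the 5 muscle markers tested (Actn3, Atp2a1, Mylpf and Tnni2) and Jchain, a plasma cell gene, were called lower in RhoC tumors. The median log2 fold change was -2.58 over the muscle markers, -1.51 over the 3 fat markers, -0.68 over the 5 B and plasma cell markers and -0.5 over the 5 red cell markers, and it lay between -0.22 and 0 over the other 5 lists. The summed level of muscle markers was 0.81 to 3950 CPM in the controls and 0.736 to 550 in the RhoC tumors, and that of fat markers 1.46 to 417 and 1.68 to 67.3. Their part in the cohort difference of the histone genes was not tested.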

How the data were processed

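RNA-seq was analysed in 21 mouse mammary tumors, 9 control and 12 RhoC, grouped by the labels. The authors made stranded libraries from total RNA depleted of ribosomal RNA. Per the labels and the submitters' processing notes, they used FastQC 0.11.5, Trim Galore 0.5.0, STAR 2.6.0c and HTSeq 0.6.1p2 on GRCm38.p6, and discarded reads of several places or genes. The strand setting of the counting is not given in the sources used here. The authors deposited raw read counts per gene in 1 file per tumor, and FPKM values per tumor in a table with their own fold changes and p-values, which were not used.

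Libraries held 47309780 to 100741339 counts. Counts were tested with edgeR 4.0.16 (R 4.3.3; TMM, low-count filter by cohort, quasi-likelihood test, Benjamini-Hochberg adjustment over 19315 genes, threshold 0.05), without covariates. The SE is the log2 fold change divided by the square root of F. Levels are TMM log2 CPM with a prior count of 2. FPKM served only to compare genes. P-values between tumors treat tumors of 1 mouse as separate. GC content was matched for 19275 genes and all 53 members tested, and the loess correction (span 0.3) was fitted on 14450 genes that are no members. The edgeR script was tested on simulated data. Alternatives included DESeq2 1.42.0, limma 3.58.1, library-size scaling, no filter, sums per mouse and leaving out each tumor.

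The members and lists were chosen with earlier results of these data known. Named members were the 2 with the highest FPKM per class, the 2 with the largest and the 1 with the smallest N-4 difference per chromosome, and the 3 with the smallest cohort p in each direction. Named genes of other lists had the smallest cohort p or the largest N-4 difference, beside Mki67, Slbp and Pcna. All other genes were named after their values were seen, among them Npat, Casp8ap2, Lsm11, Upf1, H2az1, H3f3b, Rn7sk, H2bc21, H2bc15, H2ac11, H3c4, H2bc7, H3c11, H3c15, H2bc4 and H1f3. The same holds for H4c11, H2bc14 and Tut7. Stem-loops came from GENCODE M21 transcripts and promoters from RefSeq.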

Additional observations from a re-analysis of the deposited data

Results flagged for a closer look

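The genes were selected with their levels in N-4 in view, so the gaps given here restate that choice and are a description, not a test. Among the 9 control tumors, N-4 lay further below the next tumor than Dixon's 95% critical ratio of gap to range for 9 values allows, for 10 of the 18 members named by rule, 26 of the 53 tested and for the median of all members. Levels in log2 CPM were -0.74 for H3c10 (ratio 0.629), 0.89 for H2ac15 (0.602), -4.97 for H2ac12 (0.642), where N-4 had 0 reads, and 2.86 for H4c8 (0.499). They were 2.49 for H3c6 (0.601), 1.64 for H2bc8 (0.558), 1.30 for H3c3 (0.633) and 1.30 for H4c2 (0.609). On chromosome 3 they were -0.79 for H2ac20 (0.527) and 1.27 for H3c13 (0.644). The median of the members, after subtracting each gene's own median, was -2.93 (0.589). Chance flags about 1 in 20 groups, but N-4 was the lowest tumor in 14.1% of all genes tested, so that rate is no baseline for this library. The ratio was taken for the members alone, with no share over all genes. The members move together, so these are not separate observations.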

How the results depend on the processing

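Members called between cohorts numbered 0, and 6 with the 7 Gata4(loxP/+) controls alone, 6 by DESeq2, and 0 to 6 when each tumor was left out. Genes called numbered 43, and 27 with library-size scaling, 3 with counts per mouse, 3 by limma voom, 438 with the 7 controls, 3 without P497, 1206 by DESeq2 and 14 to 346 when each tumor was left out, the highest without N-15. The median log2 fold change over members (0.433) ran from 0.272 (without N-4) to 0.769 (without N-15). H2ac10 (-0.01) became 0.04 per mouse, 0.16 by voom, 0.081 with the 7 controls and 0.066 without P497, was -0.389 with the GC correction, and ran from -0.184 to 0.162 when each tumor was left out. H1f1 (0.067) became -0.004 with library size, -0.014 per mouse, -0.153 by voom, -0.036 without N-4, -0.067 with the GC correction and -0.075 with GC and length, and ran from -0.177 to 0.282. H3c13 (0.131) became -0.035 without N-4, -0.167 with the GC correction and -0.134 with GC and length, and ran from -0.035 to 0.385. The GC correction also took H2ac19 from 1.077 to 0.711, H2ac15 from 0.517 to 0.221, H4c2 from 0.337 to 0.124 and H2ac20 from 0.356 to 0.081. The cause was not tested. The median difference of N-4 was -1.94 with the GC correction and -2.05 with GC and length, both added after the data were seen. Against the other 8 controls alone, 1 member was highest in N-4. The count of members lowest in N-4 stayed within 1.5 times under the alternatives run. The count of members related to the S phase list by Pearson's r (38) did so too, from 29 to 46, but by Spearman's rho it was 23, and 9 without N-4.

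Tumor numbers shared by the cohorts are sequencing numbers of different mice. The deviations of same-numbered tumors correlated at -0.188, -0.318, 0.072 and 0.007, so the numbers do not pair the tumors. With the tumor number as a replicate block, 0 genes were called and the median over members was -0.189. H1f5 was then -0.341, H2ac15 -0.062, H3c6 -0.397, H3c3 -0.204, H4c2 -0.368, H2ac12 -0.254, H1f1 -0.417, H3c13 -0.597 and H2ac20 -0.295. Only tumors with a shared number inform that fit.

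Depth limits H2ac12, with 0 reads in N-4, and H2ac18, with 3. Few genes have the length and GC content of the shortest members, which limits both corrections.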

Other observations

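Outside the naming rule, 8 further genes with older histone names were tested (Hist1h4n, Hist1h4m, Hist1h2bq, Hist1h2bp, Hist1h2an, Hist1h2al, Hist1h2ao and H4f16). Each was lowest in N-4. Hist1h4m, Hist1h2bq and Hist1h2ao had 0 reads there, so no size is given for their differences, and the other 5 differed from the median of the other tumors by -3.96 (H4f16) to -2.30 (Hist1h2bp). None was called between cohorts by edgeR. Hist1h4n was at 1.42 log2 CPM in N-4 and at 3.91 to 6.16 in the others, and H4f16 was at 1.41 against 3.82 to 6.75.

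The 5 genes outside the rule whose levels over 21 tumors were most like the median of the members were Hist1h4n (Pearson r 0.97), Hist1h2an (0.95), H2ax (0.95), Hist1h2al (0.95) and Hist1h2bp (0.94). Without N-4, over 20 tumors, the values were 0.93, 0.90, 0.86, 0.86 and 0.94, and Nop9 (0.90) and Pttg1 (0.89) took the places of H2ax and Hist1h2al among the 5 most alike. These tumors share libraries and base composition with the members' values, and the order is a description.

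In N-3, H2bc18 was at 6.44 where the other 20 tumors were at 3.81 to 6.17. In R-12, H2ac6 was at 3.54 where they were at -0.20 to 3.19. Pnldc1, a nuclease of the decay list, had 0 reads in N-4 and low levels in the others, at -2.93 to -0.67 log2 CPM, so no size is given for its difference.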
